A study of Mus musculus with 16 samples.

Results

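The 40 genes described here encode the glutamate receptors of the excitatory synapse and the scaffold proteins that hold them beneath the postsynaptic membrane. They were taken by gene symbol from a list, and all 40 were found among the 23284 genes of the deposited expression table. Of these, 39 were tested, because Grin3b, a subunit of glycine-activated NMDA receptors, had a mean of 0.069 FPKM, under the minimum of 0.5 FPKM used here. FPKM is the number of sequenced fragments scaled to the length of the transcript and to the mapped total of the library, so levels of different genes can roughly be set side by side. Genes with long transcripts were lower in some libraries, as described below, which limits such a comparison.

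RNA came from freshly dissected prefrontal cortex of mice of both sexes at 2 to 3 months of age, as 16 libraries, 4 for each of 4 genotypes. APC cKO mice were APC fl/fl with the CamKIIα-Cre driver, and lacked the tumor suppressor adenomatous polyposis coli, a part of the complex that targets β-catenin for degradation. Bcat stands for β-catenin, the product of Ctnnb1. Bcat cOE mice carried the same driver and 1 Ctnnb1 allele with a floxed exon 3, the exon that holds the sites through which β-catenin is marked for degradation. APC/Bcat cKO mice were homozygous for floxed APC and floxed Ctnnb1 with the driver, and controls were littermates without Cre, pooled from the lines. The driver is active mainly in forebrain excitatory neurons, while each library holds RNA of whole tissue, so fewer cells of a type and less RNA per cell cannot be told apart. Replicates are numbered 1 to 4 within a genotype. Nothing in the labels states that each library is a separate animal, so p-values measure the spread between these libraries. By sex-linked genes, control replicate 1 and APC cKO replicate 1 were female and the other 14 male.

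Glutamate opens AMPA, NMDA and kainate receptors, which are ion channels, and activates metabotropic receptors, which signal through G proteins. AMPA receptors carry most fast excitatory current in the cortex, and NMDA receptors admit the calcium that starts synaptic plasticity. TARPs, the Cacng proteins, bring AMPA receptors to the synapse and bind the MAGUK scaffolds made by the Dlg genes, which are linked through Dlgap and Shank proteins to Homer and the actin skeleton. β-catenin has a role at synapses with cadherins and also drives transcription with TCF/LEF factors, which read the DNA core CTTTGAT.

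Promoter sequence of RefSeq, in the mouse build GRCm38.p6 that mm10 is drawn from, was at hand for 28 of the 40 genes, as 42 start sites with the 250 bases before each. The core CTTTGAT, searched on both strands, was in 1 of the 42, against 3.21% of 32851 such windows of all genes. The match lay at an internal start site of Dlg1, the gene of SAP97, a MAGUK that binds AMPA receptors. A match is a description of letters, not a bound site, and the absence of one says only that these letters are not in the window. The runs printed below are those of the Dlg1 match, of Gria4, the gene nearest to the threshold in 2 of 3 comparisons with controls, and of Cacng5, which differed most between libraries. Capitals mark the core, which reads ATCAAAG on the Dlg1 strand, and the Gria4 and Cacng5 runs hold none.
Dlg1, chr16:31754100-31754349, plus strand: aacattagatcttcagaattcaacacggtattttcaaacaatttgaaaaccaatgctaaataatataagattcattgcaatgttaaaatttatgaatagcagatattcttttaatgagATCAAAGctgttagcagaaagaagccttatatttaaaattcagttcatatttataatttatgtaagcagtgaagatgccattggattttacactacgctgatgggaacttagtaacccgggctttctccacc
Gria4, chr9:4796235-4796484, minus strand: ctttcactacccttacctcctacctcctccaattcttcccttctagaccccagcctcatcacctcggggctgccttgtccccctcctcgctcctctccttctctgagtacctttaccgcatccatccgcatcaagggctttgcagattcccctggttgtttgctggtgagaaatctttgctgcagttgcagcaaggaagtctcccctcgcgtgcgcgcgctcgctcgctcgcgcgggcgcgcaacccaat
Cacng5, chr11:107915056-107915305, minus strand: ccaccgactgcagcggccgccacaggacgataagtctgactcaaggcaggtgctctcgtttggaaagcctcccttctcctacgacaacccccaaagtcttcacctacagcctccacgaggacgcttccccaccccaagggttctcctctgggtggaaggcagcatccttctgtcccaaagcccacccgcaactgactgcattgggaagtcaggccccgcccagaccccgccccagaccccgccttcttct

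The tissue expressed nearly the whole set. Summed over its members and averaged over the 16 libraries, the MAGUK class stood at 423 FPKM, the 4 AMPA subunits at 324 FPKM, the Dlgap class at 247 FPKM and the NMDA subunits at 158 FPKM. TARPs summed to 120 FPKM, metabotropic receptors to 97.6 FPKM, kainate receptors to 91.0 FPKM, Shank genes to 72.8 FPKM, the delta receptor Grid1 to 18.1 FPKM and Homer2 with Homer3 to 10.6 FPKM. Dlg4, the gene of PSD-95, was the most abundant member, with a mean of 236 FPKM. Gria2, the subunit that makes AMPA receptors impermeable to calcium, followed at 139 FPKM, then Dlgap1 at 127 FPKM and Grin1, the obligatory NMDA subunit, at 123 FPKM.

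**Figure D1:**
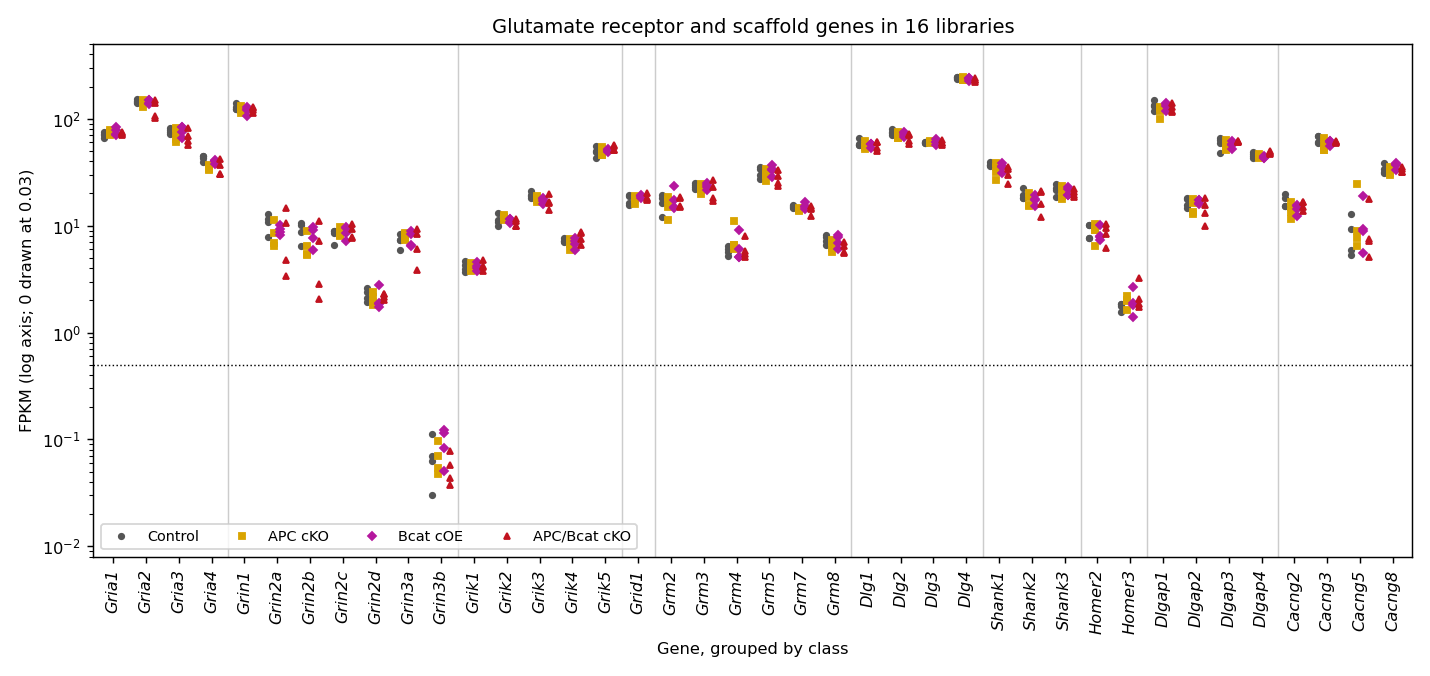
FPKM (log axis) of the 40 genes in each of the 16 libraries, with 1 point per library, the genotype given by colour and shape, genes grouped by class between grey lines and the dotted line at the 0.5 FPKM minimum. Dlg4 lies at the top near 236 FPKM in every genotype, Grin3b lies below the minimum, and Grin2a, Grin2b and Cacng5 have the widest spread among the tested genes.

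Within the AMPA class Gria1 averaged 73.4 FPKM, Gria3 72.9 FPKM and Gria4 38.2 FPKM. The NMDA genes other than Grin1 were far lower, with Grin2a at 9.12, Grin2b at 7.31, Grin2c at 8.60, Grin2d at 2.15 and Grin3a at 7.41 FPKM. Grin2a and Grin2b encode the main glutamate-binding subunits of the adult cortex. Their longest transcripts have 14.6 and 24.1 kb, against 4.28 kb for Grin1. Long transcripts were low in some libraries, which limits this ranking. Kainate subunits were led by Grik5 at 50.7 FPKM, with Grik3 at 17.7, Grik2 at 11.3, Grik4 at 7.20 and Grik1 at 4.11 FPKM.

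Metabotropic receptors stood at 30.6 FPKM for Grm5, 22.5 for Grm3, 16.6 for Grm2, 14.6 for Grm7, 6.86 for Grm8 and 6.47 for Grm4. Grm5, coupled to calcium release and bound by Homer, was thus the most abundant of its class. The other MAGUK genes were Dlg2 at 70.6, Dlg3 at 60.1 and Dlg1 at 56.9 FPKM. The remaining scaffolds were Shank1 at 34.04, Shank3 at 20.8, Shank2 at 18.0, Homer2 at 8.63, Homer3 at 1.97, Dlgap3 at 58.5, Dlgap4 at 45.6 and Dlgap2 at 15.7 FPKM. Among TARPs, Cacng3 averaged 60.3, Cacng8 33.99, Cacng2 15.3 and Cacng5 10.1 FPKM.

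Dlg3 and Dlg4, both MAGUK genes, varied least between libraries. The coefficient of variation over the 16 libraries, the SD as a percent of the mean, was 3.21% for Dlg3 and 3.34% for Dlg4, and the highest Dlg4 value was 1.12 times the lowest. Among the 39 tested genes it was largest for Cacng5 at 56.0%, Grin2b at 35.8%, Grin2a at 31.9%, Grm4 at 25.5% and Homer3 at 22.6%. Those 5 genes are described with the libraries that set them apart.

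No member passed the test in any comparison. In limma on log2(FPKM + 0.1) with Benjamini-Hochberg adjustment over 13978 genes, 0 of 39 members had an adjusted p under 0.05 in APC cKOs against controls, where the share of all genes called was 0.0429%. The count was again 0 of 39 in Bcat cOEs, where 0.0143% of all genes were called, and 0 of 39 in APC/Bcat cKOs, where 0.207% were. In each comparison the smallest adjusted p among members was 0.310 for Gria4 in APC cKOs, 0.946 for Grik3 in Bcat cOEs and 0.188 for Gria4 in APC/Bcat cKOs. In the same libraries the targeted gene Apc differed from controls by -1.95 on the log2 scale in APC cKOs (adjusted p = 2.40e-04) and by -2.14 in APC/Bcat cKOs (adjusted p = 3.35e-05), while Ctnnb1 did not pass in any of these comparisons. The Ctnnb1 value is RNA of the whole gene, which does not show the loss of single exons. By immunoblot the study reported β-catenin protein raised in APC cKOs and Bcat cOEs and strongly reduced in APC/Bcat cKOs.

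By unadjusted p under 0.05, a weaker rule, 3 members were lower in APC cKOs, against 10.0% of all genes at that p in either direction. None was in Bcat cOEs, against 5.07%, and 7 were in APC/Bcat cKOs, all lower, against 14.2%. The 3 were Gria4, Cacng2 and Cacng3, and the 7 were Gria2, Gria4, Grin2b, Grik3, Grm8, Dlg2 and Shank1. Without APC/Bcat cKO replicates 2 and 4, the libraries lowest in long transcripts, the count of 7 became 2, and without the 4 libraries highest in olfactory bulb markers the count of 3 became 1. APC/Bcat cKO replicate 4 was the lowest of all libraries in each of the 7, and both fits held fewer libraries. Lower counts were thus favoured in advance. The median log2 change of the 39 was -0.08 in APC cKOs, -0.02 in Bcat cOEs and -0.09 in APC/Bcat cKOs, beside medians of all tested genes between -0.004 and 0.003. Fold changes were below 0 for 29, 24 and 27 of 39 members in the same order. The median turned to 0.0054 in APC/Bcat cKOs without replicates 2 and 4 of that genotype, with 18 of 39 below 0, and with the trend with transcript length removed it turned to 0.0053 in APC/Bcat cKOs and 0.0067 in Bcat cOEs. Many members were lowest in replicate 2 or 4, so leaving those libraries out favoured a higher median. The 3 comparisons share the same 4 control libraries.

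**Figure D2:**
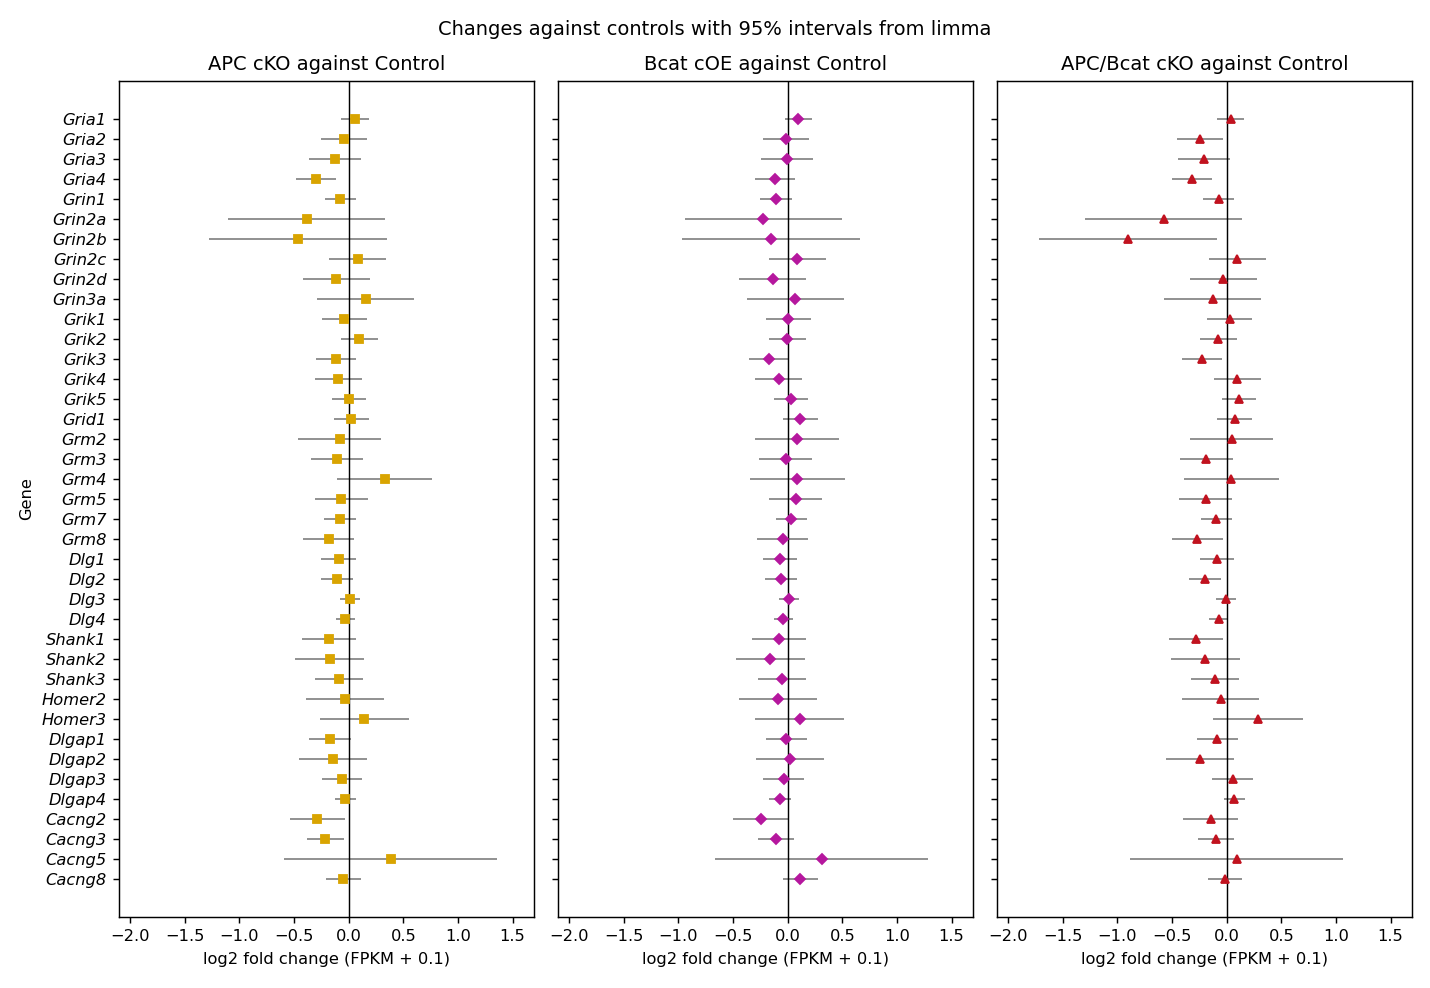
Log2 fold change of FPKM + 0.1 (horizontal axis) of the 39 tested genes (vertical axis) against controls, in 1 panel per genotype, with 95% intervals from limma as bars. Most intervals include 0, and those of Grin2a, Grin2b and Cacng5 are the widest.

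The intervals bound what these libraries leave room for. In APC cKOs the 95% interval of the log2 change lay wholly within 1 on either side of 0 for 36 of 39 members, and within 0.5 for 32. In Bcat cOEs these counts were 38 and 33, and in APC/Bcat cKOs 36 and 30. The genes with intervals beyond 1 were Grin2a, Grin2b and Cacng5 in APC cKOs and APC/Bcat cKOs, and Cacng5 alone in Bcat cOEs.

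Gria4, which lies on chromosome 9 from 4417893 to 4796234 and encodes GluA4, an AMPA subunit enriched in parvalbumin interneurons of the cortex, came nearest to the threshold. It was at 39.6, 43.0, 44.9 and 44.9 FPKM in the controls, 36.9, 34.04, 32.9 and 36.1 in the APC cKOs, 40.4, 41.3, 39.9 and 37.5 in the Bcat cOEs, and 41.8, 30.5, 36.5 and 30.5 in the APC/Bcat cKOs. Each APC cKO library lay below each control library, the Bcat cOE and control ranges overlapped, and APC/Bcat cKO replicates 2 and 4 were the lowest of all. Groups that do not overlap were also found for 5.47% of all tested genes in that comparison.

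On the log2 scale Gria4 differed from controls by -0.30 ± 0.09 (SE, adjusted p = 0.310) in APC cKOs, -0.11 ± 0.09 (SE, adjusted p = 0.950) in Bcat cOEs and -0.32 ± 0.09 (SE, adjusted p = 0.188) in APC/Bcat cKOs. The change in APC/Bcat cKOs was the one member result to pass under any alternative. That happened when APC/Bcat cKO replicate 1 was left out, with a log2 change of -0.41 and an adjusted p of 0.0306, within a range of adjusted p from 0.0306 to 0.9998 over its alternatives. Without APC/Bcat cKO replicates 2 and 4 it was -0.14, a rise that was bound to follow, since these were the lowest libraries. As a share of the 4 AMPA genes, Gria4 was 12.8% ± 0.65 (SD, n = 4) in controls, 10.9% ± 0.78 in APC cKOs, 11.8% ± 0.16 in Bcat cOEs and 11.6% ± 0.33 in APC/Bcat cKOs.

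Markers of interneurons of several types (Gad1, Gad2, Slc32a1, Pvalb, Sst, Vip and Lhx6) were read beside it, with all 7 of 7 present above 0 in each library. For Pvalb itself the study reported lower mRNA by qPCR in APC cKOs and Bcat cOEs and normal levels in APC/Bcat cKOs. These markers were read here as a sum, which does not give the level of Pvalb or of parvalbumin interneurons alone. Their summed level was 715 to 838 FPKM in controls, 642 to 759 FPKM in APC cKOs, 627 to 749 FPKM in Bcat cOEs and 725 to 862 FPKM in APC/Bcat cKOs. The lowest of the 16 sums was in Bcat cOE replicate 4 and the highest in APC/Bcat cKO replicate 4. Their median log2 change was -0.27 in APC cKOs, -0.02 in Bcat cOEs and -0.13 in APC/Bcat cKOs, with 0 of 7 called. In that order 2, 1 and 1 of 7 were lower at an unadjusted p under 0.05. Of all tested genes 10.0%, 5.07% and 14.2% were at that p in either direction. The part of these markers in the Gria4 values was not tested.

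**Figure D3:**
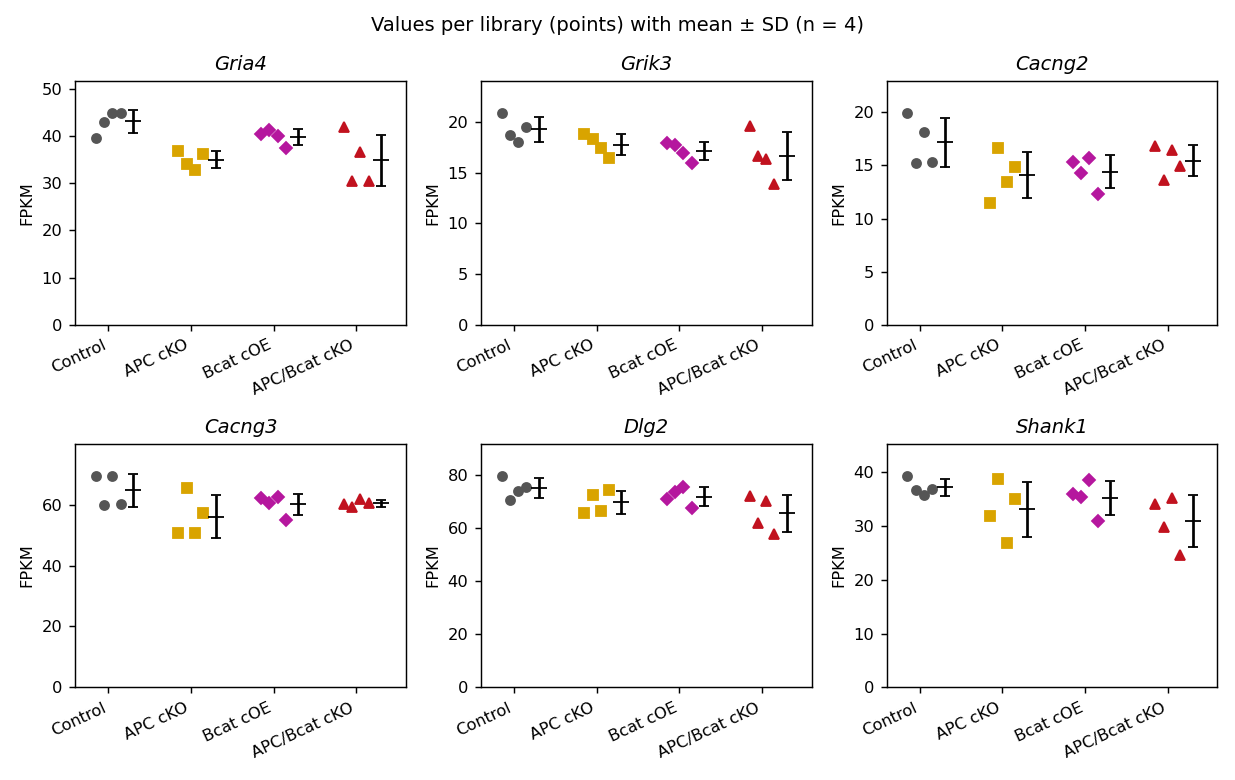
FPKM (vertical axis, from 0) of 6 genes in the 4 libraries of each genotype, with 1 point per library and the mean ± SD as a bar beside the points. The 4 APC cKO values of Gria4 lie below the 4 controls, the Bcat cOE values of Grik3 lie below the controls, and the APC/Bcat cKO values of Shank1 lie below the controls, and the other groups of these 3 genes overlap the controls.

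Gria2, the most abundant AMPA gene, was at 152, 144, 146 and 142 FPKM in the controls, 129.6, 149, 142 and 147 in the APC cKOs, 138, 149, 149 and 141 in the Bcat cOEs, and 149.7, 107, 141 and 102 in the APC/Bcat cKOs. APC/Bcat cKO replicates 2 and 4 stood below the other 14 libraries, which lay between 130 and 152 FPKM. In APC/Bcat cKOs the log2 change was -0.24 ± 0.10 (SE, adjusted p = 0.302), and -0.004 without these replicates. Since they were the lowest, leaving them out had to raise the value. Gria2 made up 43.3% ± 1.82 (SD, n = 4) of AMPA transcript in controls and 41.4% ± 2.60 in APC/Bcat cKOs.

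Gria1, whose GluA1 subunit is delivered to synapses during plasticity, was among the genes with the smallest p in Bcat cOEs. It was at 65.4, 70.9, 72.4 and 75.2 FPKM in the controls, 79.2, 74.3, 71.8 and 70.2 in the APC cKOs, 82.9, 78.1, 70.5 and 72.6 in the Bcat cOEs, and 75.4, 73.4, 72.3 and 70.1 in the APC/Bcat cKOs. The 4 genotypes overlapped, with Bcat cOE replicate 1 the highest. Its log2 change in Bcat cOEs was 0.10 ± 0.06 (SE, adjusted p = 0.950), with a 95% interval from -0.03 to 0.22, and it was 0.06 without control replicate 1 and 0.05 without Bcat cOE replicate 1. Gria3, on the X chromosome, ranged from 57.2 to 83.8 FPKM and was lowest in APC/Bcat cKO replicate 4.

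TARPs followed Gria4 in order of p in APC cKOs. Cacng3, the gene of TARP γ-3 on chromosome 7 from 122671744 to 122769394, was the most abundant. It was at 69.3, 59.9, 69.5 and 60.3 FPKM in the controls, 50.8, 65.5, 50.6 and 57.3 in the APC cKOs, 62.3, 60.4, 62.5 and 55.0 in the Bcat cOEs, and 60.1, 59.3, 61.9 and 60.5 in the APC/Bcat cKOs. APC cKO replicates 1 and 3 were the lowest of the 16, and replicate 2 was within the control range. The log2 change in APC cKOs was -0.21 ± 0.08 (SE, adjusted p = 0.384), and -0.13 without the 4 libraries highest in olfactory bulb markers.

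Cacng2, the gene of stargazin, the founding TARP, was at 19.95, 15.2, 18.1 and 15.3 FPKM in the controls, 11.5, 16.6, 13.4 and 14.8 in the APC cKOs, 15.3, 14.3, 15.7 and 12.3 in the Bcat cOEs, and 16.8, 13.6, 16.5 and 14.98 in the APC/Bcat cKOs. APC cKO replicate 1 was the lowest and control replicate 1 the highest, and the genotypes overlapped. Its log2 change was -0.29 ± 0.12 (SE, adjusted p = 0.435) in APC cKOs and -0.25 ± 0.12 (SE, adjusted p = 0.946) in Bcat cOEs. In APC cKOs it was -0.16 without the 4 libraries highest in olfactory bulb markers.

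APC cKO replicates 1 and 3, low in both TARPs, also had the lowest sums of the 9 excitatory neuron markers, at 1137 and 1114 FPKM, where the other 14 libraries ranged from 1212 to 1435 FPKM. Camk2a and Slc17a7, with means of 651 and 475 FPKM, made up most of that sum. All 9 of 9 of these markers were above 0 in each library, and 0 of 9 were called. At an unadjusted p under 0.05, 3 of 9 were lower in Bcat cOEs, beside 5.07% of all tested genes. In APC cKOs and APC/Bcat cKOs 0 of 9 were at that p. The part of these markers in the TARP values was not tested. Cacng8, TARP γ-8, ranged from 30.0 to 38.4 FPKM and had a log2 change of -0.05 in APC cKOs.

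Kainate receptors were represented among the smallest p by Grik3, the gene of GluK3, on chromosome 4 from 125490831 to 125714173. It was at 20.9, 18.7, 18.0 and 19.5 FPKM in the controls, 18.8, 18.3, 17.4 and 16.5 in the APC cKOs, 18.0, 17.8, 16.9 and 15.9 in the Bcat cOEs, and 19.6, 16.6, 16.4 and 13.9 in the APC/Bcat cKOs. Each Bcat cOE library lay below each control by a narrow margin, while APC/Bcat cKO replicate 1 was within the control range. Groups that do not overlap were found for 3.08% of all tested genes in that comparison.

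Grik3 had a log2 change of -0.17 ± 0.09 (SE, adjusted p = 0.946) in Bcat cOEs and -0.22 ± 0.09 (SE, adjusted p = 0.289) in APC/Bcat cKOs. With the transcript length trend removed, the second was -0.06, and without APC/Bcat cKO replicates 2 and 4 it was -0.10. Replicate 4 was the lowest of all libraries, so leaving it out had to raise the value. Grik5, the gene of the high-affinity subunit GluK5 and the most abundant of the class, was at 50, 55.9, 49.2 and 43.1 FPKM in the controls, 46.2, 51.8, 45.9 and 54.2 in the APC cKOs, 49.9, 51.9, 51.4 and 48.3 in the Bcat cOEs, and 51.3, 55.3, 50.6 and 56.7 in the APC/Bcat cKOs. Its groups overlapped, and its log2 change in APC/Bcat cKOs was 0.11 ± 0.07 (SE, adjusted p = 0.482), which was 0.17 without control replicate 2 and 0.05 without control replicate 4. Grid1, the gene of the delta receptor GluD1, which organizes synapses without carrying glutamate current, was at 19.2, 18.8, 15.6 and 16.3 FPKM in the controls, 15.8, 19.0, 18.2 and 17.8 in the APC cKOs, 18.0, 19.3, 19.1 and 19.0 in the Bcat cOEs, and 20.01, 17.4, 17.8 and 18.2 in the APC/Bcat cKOs. Control replicates 3 and 4 and APC cKO replicate 1 were the lowest, and the log2 change in Bcat cOEs was 0.11 ± 0.08 (SE, adjusted p = 0.950), or 0.06 without control replicate 3.

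Grin1 was the steadiest of the NMDA genes. It was at 122, 139.9, 124 and 128 FPKM in the controls, 120.4, 132, 112 and 124 in the APC cKOs, 120.4, 123, 128 and 106 in the Bcat cOEs, and 129, 126, 119 and 114 in the APC/Bcat cKOs. Bcat cOE replicate 4 was the lowest and control replicate 2 the highest, with overlap of all genotypes. The log2 change in Bcat cOEs was -0.11 ± 0.07 (SE, adjusted p = 0.950), and it was -0.07 without control replicate 2 and -0.05 without Bcat cOE replicate 4.

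Grin2a and Grin2b showed a different pattern, most marked in 2 libraries of 1 genotype. They were taken up after their values were seen. Grin2b, the gene of GluN2B on chromosome 6 from 135729805 to 136173511, was at 10.6, 8.76, 6.47 and 10.05 FPKM in the controls, 5.28, 8.81, 5.41 and 6.43 in the APC cKOs, 9.07, 9.62, 7.66 and 5.89 in the Bcat cOEs, and 10.9, 2.82, 7.15 and 2.08 in the APC/Bcat cKOs. Grin2a, the gene of GluN2A on chromosome 16 from 9577710 to 9992533, was at 11.5, 10.9, 7.89 and 12.7 FPKM in the controls, 6.41, 11.3, 6.85 and 8.58 in the APC cKOs, 8.81, 9.36, 10.1 and 8.12 in the Bcat cOEs, and 14.5, 4.79, 10.6 and 3.37 in the APC/Bcat cKOs. In both genes APC/Bcat cKO replicates 2 and 4 were the lowest of the 16 libraries, while replicate 1 of the same genotype was the highest. APC cKO replicates 1, 3 and 4 also lay below each control in Grin2b, and APC cKO replicates 1 and 3 in Grin2a. Grin2c, which also encodes a glutamate-binding subunit, was at 10.4 FPKM in replicate 2, the highest of the 16, and at 9.34 FPKM in replicate 4, and Grin2d was at 2.31 and 2.01 FPKM.

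In APC/Bcat cKOs the log2 change of Grin2b was -0.91 (95% interval -1.72 to -0.09, adjusted p = 0.317) and that of Grin2a -0.58 (95% interval -1.29 to 0.14, adjusted p = 0.449). Without replicates 2 and 4 of that genotype the values were 0.01 and 0.23. Those 2 libraries were the lowest in both genes, so leaving them out had to raise the values, and 2 libraries of the genotype remained. In APC cKOs the log2 change of Grin2b was -0.47 (95% interval -1.28 to 0.35, adjusted p = 0.706). That of Grin2a was -0.39 (95% interval -1.10 to 0.33, adjusted p = 0.722). In Bcat cOEs the changes of Grin2b and Grin2a were -0.15 and -0.22. The ratio of Grin2b to Grin2a was 0.832 ± 0.057 (SD, n = 4) in controls, 0.785 ± 0.031 in APC cKOs, 0.886 ± 0.165 in Bcat cOEs and 0.658 ± 0.072 in APC/Bcat cKOs.

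Transcript length moved with these values. The longest annotated transcript has 24.1 kb for Grin2b, 14.6 kb for Grin2a and 10.4 kb for Gria2. Over 320 other genes with transcripts of at least 10 kb, the median log2 deviation from each gene's mean was -0.21 in APC/Bcat cKO replicate 2 and -0.48 in replicate 4. In the other 14 libraries it ranged from -0.11 to 0.24, and APC/Bcat cKO replicate 1 stood at 0.19. In genes with transcripts under 1.5 kb the APC/Bcat cKO libraries ranged from -0.02 to 0.21, with replicate 4 the highest.

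**Figure D4:**
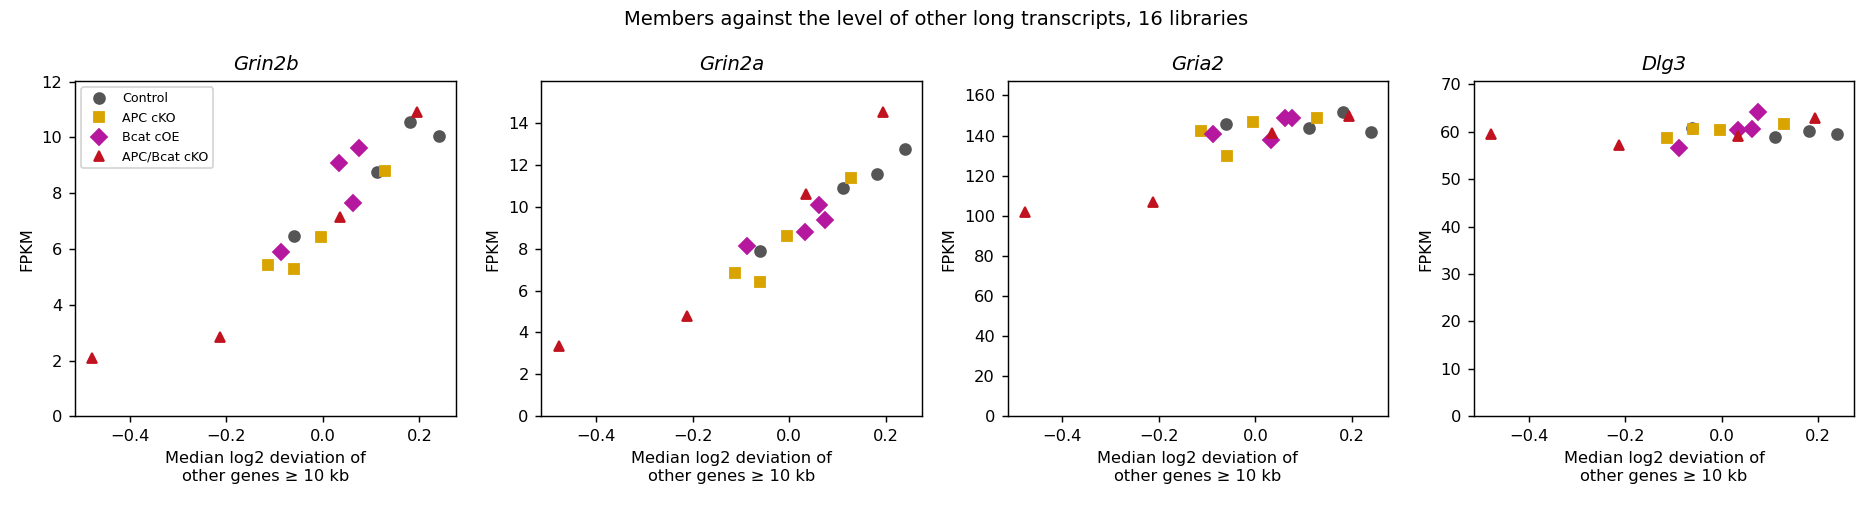
FPKM of Grin2b, Grin2a, Gria2 and Dlg3 (vertical axes, from 0) against the median log2 deviation of 320 other genes with transcripts of at least 10 kb (horizontal axis), 1 point per library. Grin2b and Grin2a are lowest in the 2 APC/Bcat cKO libraries farthest to the left, Gria2 is low in the same 2 libraries, and Dlg3, the member that varied least, with a longest transcript of 4.96 kb, stays between 56.5 and 64.2 FPKM.

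The same split ran through the whole set. All 13 of 13 members with a longest transcript of at least 7 kb had a log2 change below 0 in APC/Bcat cKOs, with a median of -0.20. Of 26 members with shorter transcripts, 14 were below 0, with a median of -0.01. After the trend with length was removed from each library, 8 of 13 long members were below 0, with a median of -0.05, and 10 of 26 short ones, with a median of 0.04. In APC cKOs the medians were -0.11 for the long and -0.07 for the short members, and in Bcat cOEs -0.06 and -0.002. Low values in these 2 libraries were not confined to long transcripts. Of the 13 long members 10 had their lowest value in APC/Bcat cKO replicate 2 or 4, and so had 8 of the 26 shorter ones. Among the shorter ones, Gria4 (5.44 kb) was lowest in both, and Gria3 (5.19 kb), Grm8 (3.86 kb) and Dlgap2 (4.50 kb) were lowest in replicate 4. The limit of 7 kb was set after the values were seen, so these counts are descriptions. What set the long transcripts apart in these 2 libraries was not tested.

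Shank1, a scaffold that joins Dlgap proteins to Homer, has a longest transcript of 9.83 kb. It was at 39.3, 36.6, 35.7 and 36.8 FPKM in the controls, 31.8, 38.7, 26.8 and 35.0 in the APC cKOs, 35.8, 35.3, 38.5 and 30.96 in the Bcat cOEs, and 34.1, 29.7, 35.2 and 24.5 in the APC/Bcat cKOs. Each APC/Bcat cKO library lay below each control, with replicate 4 the lowest of all, and groups that do not overlap were found for 5.21% of all tested genes in that comparison. The log2 change was -0.28 ± 0.12 (SE, adjusted p = 0.310), and -0.10 without APC/Bcat cKO replicates 2 and 4. Those were the lowest of their genotype, so leaving them out had to raise the value. Shank2, at 12.1 FPKM, and Dlgap2, at 9.99 FPKM, were likewise lowest in APC/Bcat cKO replicate 4, while Shank3 was lowest in APC cKO replicate 1 at 17.6 FPKM.

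Dlg2, the gene of PSD-93, a relative of PSD-95, was at 79.9, 70.8, 74.1 and 75.7 FPKM in the controls, 65.7, 72.6, 66.4 and 74.4 in the APC cKOs, 71.0, 73.7, 75.6 and 67.5 in the Bcat cOEs, and 72.4, 61.9, 70.4 and 57.9 in the APC/Bcat cKOs. APC/Bcat cKO replicates 2 and 4 were the lowest of the 16, and replicates 1 and 3 were near the low end of the controls. The log2 change was -0.20 ± 0.07 (SE, adjusted p = 0.278), and -0.06 with the length trend removed.

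Dlg4 was at 247, 244, 243 and 233 FPKM in the controls, 231, 242, 229.9 and 243 in the APC cKOs, 237, 239.9, 239 and 223 in the Bcat cOEs, and 239, 220.0, 229 and 231 in the APC/Bcat cKOs. The genotypes overlapped, and the whole range over 16 libraries was 220.0 to 246.6 FPKM. Its log2 change in APC/Bcat cKOs was -0.07 ± 0.04 (SE, adjusted p = 0.424), which turned to 0.03 with the length trend removed. PSD-95 transcript made up 55.4% ± 1.03 (SD, n = 4) of the Dlg1 to Dlg4 sum in controls, 56.0% ± 0.54 in APC cKOs, 55.4% ± 0.60 in Bcat cOEs and 55.9% ± 1.32 in APC/Bcat cKOs. Dlg1, with the core in its printed window, ranged from 50.1 to 66.3 FPKM and had log2 changes of -0.09, -0.07 and -0.09 in APC cKOs, Bcat cOEs and APC/Bcat cKOs.

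Dlgap1, the gene of GKAP, which ties PSD-95 to Shank, was at 118, 134, 130.2 and 150.1 FPKM in the controls, 119, 128, 99.4 and 127 in the APC cKOs, 132, 139, 136 and 118 in the Bcat cOEs, and 139, 117, 128 and 117 in the APC/Bcat cKOs. APC cKO replicate 3 was the lowest and control replicate 4 the highest, with overlap of the genotypes. The log2 change in APC cKOs was -0.17 ± 0.09 (SE, adjusted p = 0.548), and it was -0.11 without control replicate 4 and -0.09 without APC cKO replicate 3. Homer2, which binds group I metabotropic receptors, was at 7.58, 7.62, 10.1 and 10.2 FPKM in the controls, 10.2, 9.02, 6.50 and 9.02 in the APC cKOs, 10.1, 8.05, 7.40 and 7.81 in the Bcat cOEs, and 9.46, 8.35, 10.4 and 6.23 in the APC/Bcat cKOs. Its genotypes overlapped throughout, and the log2 change in Bcat cOEs was -0.09 ± 0.17 (SE, adjusted p = 0.974). With 1 library left out at a time that value ran from -0.18, without Bcat cOE replicate 1, to -0.02, without control replicate 3 or 4. Grm5, the receptor that Homer binds, was at 35.0, 30.1, 27.3 and 33.6 FPKM in the controls, 26.05, 30.5, 33.7 and 29.9 in the APC cKOs, 28.7, 37.04, 34.03 and 32.9 in the Bcat cOEs, and 33.1, 23.3, 29.2 and 24.99 in the APC/Bcat cKOs. APC/Bcat cKO replicates 2 and 4 were again the lowest, and the log2 change of -0.19 ± 0.11 (SE, adjusted p = 0.450) became -0.01 without them. Leaving out the lowest libraries had to raise it.

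Cacng5, the gene of TARP γ-5 on chromosome 11 from 107874605 to 107915055, varied most of the tested members. The study printed this gene among its changed genes, so its values here are not independent evidence of that. It was at 5.29, 5.86, 12.9 and 9.25 FPKM in the controls, 24.5, 6.49, 7.68 and 8.86 in the APC cKOs, 18.9, 9.28, 5.59 and 8.998 in the Bcat cOEs, and 5.05, 17.7, 7.47 and 7.20 in the APC/Bcat cKOs. APC cKO replicate 1, Bcat cOE replicate 1, APC/Bcat cKO replicate 2 and control replicate 3 were the highest, 1 library in each genotype, and the other 12 lay between 5.05 and 9.28 FPKM.

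The log2 change of Cacng5 was 0.38 (95% interval -0.59 to 1.36, adjusted p = 0.803) in APC cKOs, 0.31 (95% interval -0.66 to 1.28, adjusted p = 0.971) in Bcat cOEs and 0.09 (95% interval -0.88 to 1.07, adjusted p = 0.951) in APC/Bcat cKOs. In APC cKOs it was -0.04 without APC cKO replicate 1, and in Bcat cOEs -0.01 without Bcat cOE replicate 1. Each was the highest library of its line, so leaving it out had to lower the value. Control replicate 3, the highest control, stayed in both fits. With APC cKO and Bcat cOE, the lines made to hold excess β-catenin, set together against Control and APC/Bcat cKO, the log2 difference was 0.30 ± 0.32 (SE, adjusted p = 0.842).

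Those 4 libraries were also the 4 highest in the summed level of 7 olfactory bulb and neuroblast markers (Dcx, Dlx1, Dlx2, Sp8, Eomes, Cdhr1 and Doc2g). The sum was 215 FPKM in APC cKO replicate 1, 208 in Bcat cOE replicate 1, 156 in APC/Bcat cKO replicate 2 and 133 in control replicate 3, and 18.9 to 101 in the other 12, an 11.4-fold range over all 16. All 7 of 7 markers were above 0 in each library, and by genotype the sum ranged from 18.9 to 133 FPKM in controls, 30.5 to 215 in APC cKOs, 43.4 to 208 in Bcat cOEs and 27.6 to 156 in APC/Bcat cKOs. With the marker sum as a covariate the Cacng5 changes were 0.30, 0.09 and 0.05, and without the 4 libraries 0.20, 0.23 and -0.03, in the order APC cKO, Bcat cOE and APC/Bcat cKO.

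Grm4 and Homer3, taken up after their values were seen, were high in some of the same libraries. Grm4, the gene of the presynaptic receptor mGlu4, was at 6.08, 5.17, 5.67 and 6.43 FPKM in the controls, 11.1, 6.62, 6.56 and 6.04 in the APC cKOs, 9.19, 6.07, 5.11 and 5.11 in the Bcat cOEs, and 5.11, 8.04, 5.40 and 5.80 in the APC/Bcat cKOs. Its 3 highest values came from APC cKO replicate 1, Bcat cOE replicate 1 and APC/Bcat cKO replicate 2, while control replicate 3 was not high. The log2 change in APC cKOs was 0.33 ± 0.20 (SE, adjusted p = 0.605), and 0.12 without the 4 libraries. Homer3 was at 1.76, 1.84, 1.85 and 1.57 FPKM in the controls, 2.20, 1.63, 2.03 and 1.95 in the APC cKOs, 2.67, 1.80, 1.41 and 1.89 in the Bcat cOEs, and 1.75, 3.25, 2.07 and 1.83 in the APC/Bcat cKOs, with APC/Bcat cKO replicate 2 the highest, Bcat cOE replicate 1 next and APC cKO replicate 1 after it. The part of the markers in the Homer3 values was not tested.

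**Figure D5:**
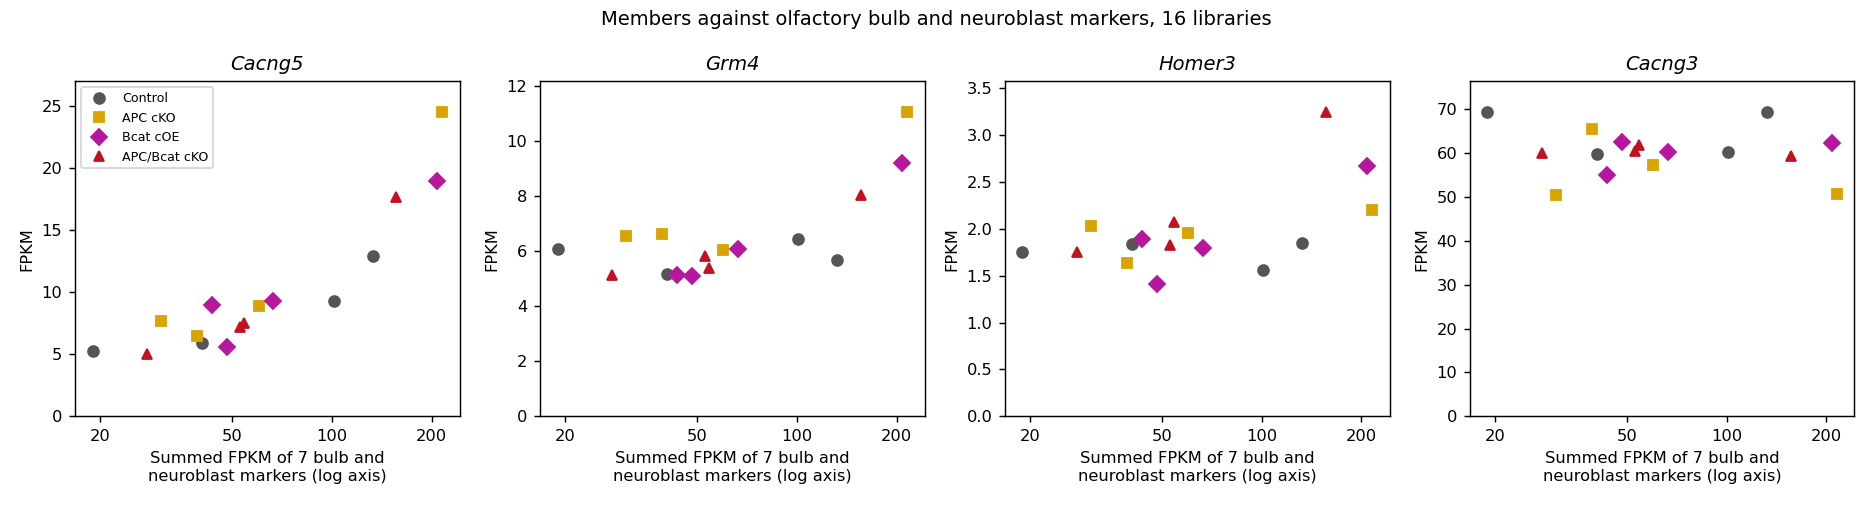
FPKM of Cacng5, Grm4, Homer3 and Cacng3 (vertical axes, from 0) against the summed FPKM of 7 olfactory bulb and neuroblast markers (horizontal log axis), 1 point per library. Cacng5 lies between 5.05 and 9.28 FPKM in 12 libraries and is higher in the 4 with marker sums of 133 FPKM and above, Grm4 and Homer3 are high in 3 of those 4, and Cacng3 spans 50.6 to 69.5 FPKM without such a split.

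Other tissue markers varied between libraries too. Markers of striatal projection neurons ranged 5.05-fold in summed level, from 160 to 809 FPKM, with the highest sum in APC cKO replicate 3, and choroid plexus and ependyma markers ranged from 1.66 to 8.39 FPKM. Oligodendrocyte markers summed to 712 to 1089 FPKM in controls, 626 to 751 in APC cKOs, 715 to 929 in Bcat cOEs and 914 to 1032 in APC/Bcat cKOs, with 4 of 6 lower in APC cKOs (median log2 change -0.26) and 3 of 6 higher in APC/Bcat cKOs (0.23) at an unadjusted p under 0.05. Microglia markers summed to 78.6 to 83.9 FPKM in controls and 86.5 to 91.6 in APC/Bcat cKOs, which did not overlap, with 2 of 5 higher at that p. Of all tested genes, 10.0% in APC cKOs and 14.2% in APC/Bcat cKOs were at that p in either direction. In APC/Bcat cKOs 5.21% of all tested genes did not overlap the controls. In these comparisons 0 markers of either list were called, and their part in the members' values was not tested. The sum of the excitatory neuron markers, most of it from Camk2a and Slc17a7, varied 1.29-fold. In single libraries 5726 to 6649 genes were at 0, and their depth is unknown.

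The genotypes were also compared with each other. Again 0 of 39 members were called, in APC cKOs against APC/Bcat cKOs (0.215% of all genes called), in Bcat cOEs against APC/Bcat cKOs (0.229%), in APC cKOs against Bcat cOEs (0.0429%) and in APC cKO with Bcat cOE against control with APC/Bcat cKO (0.0572%). At the weaker rule 2, 4, 2 and 2 members stood under 0.05 before adjustment, where all genes stood at 10.3%, 11.9%, 7.57% and 8.84%. Dlgap4, which links PSD-95 to Shank like Dlgap1, was in 3 of these 4, with log2 differences of -0.10 from APC/Bcat cKOs in APC cKOs, -0.14 in Bcat cOEs (adjusted p = 0.251) and -0.09 in the joint comparison (adjusted p = 0.474). These 3 comparisons share libraries, among them those of APC/Bcat cKO, so they are not separate results. The other members at that p were Grik2 in the first comparison, Gria2, Gria4 and Grm5 in the second, Gria4 and Cacng8 in the third and Cacng2 in the joint comparison.

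Other genes of the excitatory synapse gave the same counts of 0 called, and their counts at an unadjusted p under 0.05 stand beside 10.0%, 5.07% and 14.2% of all genes in APC cKOs, Bcat cOEs and APC/Bcat cKOs. Of 13 receptor auxiliary and trafficking genes, 0 were called in any comparison with controls, and at an unadjusted p under 0.05 there were 2, both lower in APC/Bcat cKOs. These were Neto1 at -0.36 and Neto2 at -0.23 on the log2 scale, the auxiliary subunits of kainate receptors. Of 21 postsynaptic enzyme and adaptor genes tested from a list of 22, 0 were called, and at that p 3 were lower and 1 higher in APC cKOs, 1 lower in Bcat cOEs and 1 lower and 1 higher in APC/Bcat cKOs. The 3 lower in APC cKOs were Camk2g, Nrgn and Cript, at -0.25, -0.26 and -0.29, and the higher was Arc, an immediate early gene, at 0.94. Of 14 adhesion genes 0 were called, and 2, 1 and 1 were lower at that p in the 3 comparisons in the order APC cKO, Bcat cOE and APC/Bcat cKO. Of 9 transport and metabolism genes 0 were called, and 1 each was lower at that p in APC/Bcat cKOs and in Bcat cOEs, with Slc1a2, the glial transporter GLT-1, at -0.40 in APC/Bcat cKOs and Glul, glutamine synthetase, at -0.21 in Bcat cOEs. The changes of these single genes come from the fit with all 16 libraries, among them those low in long transcripts.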

How the data were processed

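The authors prepared stranded mRNA libraries (Illumina TruSeq), sequenced them as paired 100-base reads, mapped them to mm10 with TopHat2 2.0.10, and quantified them with Cufflinks and Cuffdiff 2.1.1, per the labels and the methods of the study. The deposited table holds log2 values, which the authors made from normalized FPKM. The table does not name its scale. It was read as log2(FPKM + 1), since the FPKM this gives, times transcript length in kb and summed over genes, came to 1206602 to 1288160 per library, near the total that FPKM is scaled to, whereas a natural log gave 10035730 to 11023114. Values were turned back into FPKM.

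The 13978 of 23284 genes whose mean reached 0.5 FPKM were tested on log2(FPKM + 0.1) with limma 3.58.1 in R 4.3.3 (lmFit, contrasts.fit, eBayes with a trend). The test was two-sided, with the 4 genotypes in 1 fit, 12 residual degrees of freedom and Benjamini-Hochberg adjustment over all tested genes. Adding 0.1 understates the change of low genes. Depth is unknown, since the table holds no counts.

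Members and lists were chosen with earlier results of these data known. All 40 are named with their level. Values per library are given for any member called, the 3 with the smallest unadjusted p in each comparison with controls, the most abundant of each class, and Cacng5. Grin2a, Grin2b, Grm4, Homer3 and the changes given for other members and for single pathway genes were added after their values were seen. Replicate numbers follow the order of the samples. Other pseudocounts, filters, scalings, covariates, blocks and left-out libraries were tried. Starts of loci were raised by 1 base to count from 1, and transcript lengths are those of the longest GENCODE transcript.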

Additional observations from a re-analysis of the deposited data

Results flagged for a closer look

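In 6 of 156 groups of 4 libraries, 1 for each tested member and genotype, 1 library stood apart by Dixon's ratio (the gap to its nearest neighbour over the range of the group) above the 95% critical value. Chance gives about 1 in 20 groups, or 7.8 of 156, so the number of such groups is not above that.

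In controls, replicate 4 was low in Grin2c, an NMDA subunit, at 6.61 FPKM against 8.55 to 8.90 in the other 3 (ratio 0.867), and high in Grik4, a kainate subunit, at 7.74 FPKM against 7.06 to 7.16 (ratio 0.848). In Bcat cOEs, replicate 1 was high in Grin2d at 2.79 FPKM against 1.75 to 1.88 (ratio 0.848) and low in Dlg1 at 52.8 FPKM against 57.6 to 58.2 (ratio 0.900). Bcat cOE replicate 4 was low in Dlg4 at 223 FPKM against 237 to 240 (ratio 0.861).

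APC cKO replicate 1 was high in Grm4 at 11.1 FPKM against 6.04 to 6.62 (ratio 0.849). This is the library with the highest sum of olfactory bulb and neuroblast markers.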

How the results depend on the processing

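Under 31 alternatives, of which the joint comparison lacks the fit to its own groups since it uses all 4, the number of members called stayed at 0, except that 1 was called in APC/Bcat cKOs against controls without APC/Bcat cKO replicate 1. Alternatives chosen after seeing the data were the removal of the length trend, the marker covariate, the joint removal of 2 or 4 libraries and the block of library number runs. The cause of the changes given here was not tested.

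The number of members at an unadjusted p under 0.05 moved more. Leaving out 1 library at a time gave 1 to 5 in APC cKOs, 0 to 2 in Bcat cOEs and 1 to 12 in APC/Bcat cKOs against controls. In APC cKOs the 5 came without APC cKO replicate 2, and 1 without control replicate 3 or APC cKO replicate 1 or 3. In APC/Bcat cKOs the 12 came without APC/Bcat cKO replicate 1, 4 without replicate 2, 1 without replicate 4 and 3 without control replicate 1. It gave 0 to 5 for APC cKO against APC/Bcat cKO, 1 to 11 for Bcat cOE against APC/Bcat cKO, 0 to 3 for APC cKO against Bcat cOE and 1 to 4 for the joint comparison of APC cKO with Bcat cOE. The median change of members ranged in that order from -0.114 to -0.056, -0.040 to -0.0018, -0.120 to -0.048, -0.025 to 0.054, 0.022 to 0.096, -0.077 to -0.015 and -0.036 to 0.024. Cacng5 ranged from -0.035 to 0.62 in APC cKOs, -0.0088 to 0.57 in Bcat cOEs and -0.27 to 0.33 in APC/Bcat cKOs, the lowest values coming without the replicate of that line highest in bulb markers.

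Without the 2 libraries lowest in long transcripts, the count was 1 in Bcat cOEs and 2 in APC/Bcat cKOs against controls, and 4, 1, 1 and 5 in the later comparisons. The median was 0.0054 in APC/Bcat cKOs, -0.080 and -0.015 for APC cKO and Bcat cOE against APC/Bcat cKO, and -0.058 in the joint comparison. In APC/Bcat cKOs the change was then 0.23 for Grin2a, 0.0054 for Grin2b and -0.34 for Cacng5. Many members were lowest in those 2 libraries, so leaving them out favoured a higher median in APC/Bcat cKOs. Without the 4 libraries highest in bulb markers the count was 1 in APC cKOs, 3 in APC/Bcat cKOs, and 1, 1, 1 and 0 in the later comparisons. The median was then -0.043 in Bcat cOEs, -0.056 in APC/Bcat cKOs and 0.026 for Bcat cOE against APC/Bcat cKO, and Cacng5 turned to -0.026 in APC/Bcat cKOs. With the length trend removed the medians were -0.045, 0.0067 and 0.0053 against controls and -0.014 for APC cKO and -0.011 for Bcat cOE against APC/Bcat cKO, and Dlg4 turned to 0.027. The marker covariate gave counts of 1 in Bcat cOEs and 8 for Bcat cOE against APC/Bcat cKO.

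With only the groups compared in the fit the count was 2 in Bcat cOEs, 4 in APC/Bcat cKOs, 1 for APC cKO and 2 for Bcat cOE against APC/Bcat cKO. Quantile scaling gave a median of 0.043 for APC cKO and a count of 7 for Bcat cOE against APC/Bcat cKO, and 1 for APC cKO against Bcat cOE. No trend and a sex covariate each gave 1 for APC cKO against APC/Bcat cKO and 0 for APC cKO against Bcat cOE.

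No pairing of libraries by the replicate numbers in the sample titles was seen in their correlations. Libraries with the same number had deviations correlated with a median r of -0.07 over 21 pairs, with a range from -0.22 to 0.32. This does not exclude a pairing. The replicate block gave counts of 1 in Bcat cOEs, 1 for APC cKO and 2 for Bcat cOE against APC/Bcat cKO, 1 for APC cKO against Bcat cOE and 1 in the joint comparison, and changed no adjusted call. Blocking on runs of library numbers (median r -0.03 over 24 pairs) gave 1 in Bcat cOEs, 0 for APC cKO against APC/Bcat cKO and 1 for APC cKO against Bcat cOE.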
